A study of Mus musculus with 18 samples.

Results

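The gene set comprised 10 genes of the NF-κB system, taken by their names from the 31053 genes listed, and 10 of 10 passed the filter on low counts that left 12290 genes. They were 4 subunits (*Nfkb1*, *Nfkb2*, *Rela*, *Relb*), the IκB inhibitors *Nfkbia* and *Nfkbie*, the nuclear IκB proteins *Nfkbiz* and *Bcl3*, and the feedback regulators *Tnfaip3* and *Tnip1*. Their expression was measured by bulk RNA-Seq in bone-marrow-derived macrophages (BMDM-s) of 6 C57Bl/6J mice, 12 weeks old. The knockout mice (Slc7a7-/-, n = 3) had the amino acid transporter gene *Slc7a7* knocked out in myeloid cells, where the LysM-Cre transgene is active. The others (Slc7a7+/+, n = 3) served as wild type. After 7 days of differentiation with macrophage colony-stimulating factor or L-cell conditioned medium, 100000 cells per library were kept for 24 h with vehicle (control), with 50 µg/mL acetylated LDL (Ac-LDL) or with 100 µg/mL oxidized LDL (Ox-LDL). The cells of each mouse received all 3 treatments, which gave 18 libraries in 6 groups of 3.

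NF-κB dimers are held in the cytoplasm by IκB proteins, and they reach the nucleus when the IκB kinase (IKK) complex marks these inhibitors for degradation. In the canonical arm the dimers hold the p65 protein (*Rela*) and p50 (from *Nfkb1*), and in the non-canonical arm p52 (from *Nfkb2*) pairs with *Relb*. Several of the inhibitors and subunits are themselves induced by NF-κB, so that macrophages switch the pathway on and off through the same genes that carry its signal.

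The library labels were checked first. *Slc7a7* had between 12 and 45 counts in wild type libraries and between 3 and 17 in knockout libraries. In CPM (counts scaled to library size and composition by TMM) it was at 11.1 to 21.1 in wild type and 4.33 to 10.3 in knockout control cells, and the genotypes did not overlap in any treatment. All 8 macrophage markers had counts in 18 of 18 libraries, while the summed levels of lymphoid and erythroid markers stayed at or under 0.842 and 2.19 CPM. Dendritic cell markers summed to at most 5.203 CPM, stromal markers to at most 25.98 CPM and neutrophil markers to between 25.5 and 252 CPM. Total counts were 1043492 to 1768816 per library. For a gene without a count in a library, the expected count could still be up to 3 by counting error alone (1.67 to 2.85 CPM). All values of the 10 genes were above this. The libraries of wild type mouse 1 were the shallowest of their treatments in wild type cells and held the lowest level of 8 of the 10 genes in control cells, 8 with Ac-LDL and 6 with Ox-LDL. Among knockout libraries, those of mouse 2 held the lowest level of 4 genes in control cells, 7 with Ac-LDL and 7 with Ox-LDL. The share of all genes with such patterns was not computed. The counts of calls below are also given without wild type mouse 1.

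The DNA upstream of these genes is shown because many of them carry the κB site, the short sequence that NF-κB dimers bind. RefSeq promoter sequences (GRCm38.p6) were found for 7 of the 10 genes, and none are printed for *Nfkbiz*, *Nfkb1* and *Relb*. The κB consensus was searched on both strands within 250 bases before an annotated start. On either strand it was found in 5 of these 7 genes (*Nfkbia*, *Nfkbie*, *Tnfaip3*, *Tnip1* and *Nfkb2*). Of 27025 genes searched in the same way, 8.23% had a match. It was not found in these windows of *Rela* and *Bcl3*. Capitals mark the match in each sequence, including overlapping matches:
Nfkbia, chr12:55492648-55492767, minus strand: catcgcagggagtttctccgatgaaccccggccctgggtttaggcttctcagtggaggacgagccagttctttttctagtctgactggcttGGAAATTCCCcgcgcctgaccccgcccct
Nfkbie, chr17:45555580-45555699, plus strand: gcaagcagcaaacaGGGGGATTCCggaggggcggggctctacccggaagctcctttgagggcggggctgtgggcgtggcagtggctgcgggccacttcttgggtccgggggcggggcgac
Tnip1, chr11:54962941-54963060, minus strand: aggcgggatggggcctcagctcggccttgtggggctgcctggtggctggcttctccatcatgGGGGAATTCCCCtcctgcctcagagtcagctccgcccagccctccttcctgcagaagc
Tnfaip3, chr10:19015516-19015545, minus strand: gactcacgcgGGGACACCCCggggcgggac
Tnfaip3, chr10:19015411-19015440, minus strand: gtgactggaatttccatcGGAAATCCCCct
Nfkb2, chr19:46304689-46304718, plus strand: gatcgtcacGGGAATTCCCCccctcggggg
Nfkb2, chr19:46304709-46304736, plus strand: ccctcggggggccgaaaGGGGCTTTCCc
The match began 29 bases before the start of *Nfkbia*, 106 bases before that of *Nfkbie* and 58 bases before that of *Tnip1*. In *Tnfaip3* the matches began 125 and 12 bases before the start, and in *Nfkb2* 39 and 11 bases before it. The windows of 2 further *Nfkb2* starts held a match each, at 236 and 225 bases, and that of a further *Tnfaip3* start held none. The stretches of *Nfkbia*, *Nfkbie* and *Tnip1* lie outside the annotated gene on its 5′ side, and those of *Tnfaip3* and *Nfkb2* lie within the gene as GENCODE annotates it. A match of letters is a description of the sequence, and binding was not measured.

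With Ox-LDL, 8 of the 10 genes had lower levels than control in 3 of 3 mice of each genotype, and most of these passed the test. The share of all genes that were lower in every mouse was not computed. In wild type cells 7 genes fell (*Nfkbia*, *Nfkbie*, *Tnfaip3*, *Tnip1*, *Nfkb2*, *Relb* and *Bcl3*), to between 0.391 and 0.509 of control, where 1.07% of all genes tested were called lower. In knockout cells 6 genes fell (the same without *Bcl3*), to between 0.380 and 0.531 of control, against 1.66% of all genes called lower. With Ac-LDL 2 genes fell in each genotype, *Tnip1* and *Relb* in wild type cells and *Nfkbia* and *Tnip1* in knockout cells, with 0.407% and 0.448% of all genes called lower. None of the 10 genes was called higher. Of all genes, 0.0651% and 0.277% were called higher with Ac-LDL and Ox-LDL in wild type cells, and 0.0732% and 0.659% in knockout cells. *Nfkb1* and *Rela*, which encode the canonical dimer, passed in none of them. Calls are edgeR quasi-likelihood tests at an adjusted p under 0.05, over all 12290 genes. The fit behind them, like each fit without 1 library below, did not pair the libraries by mouse.

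**Figure D1:**
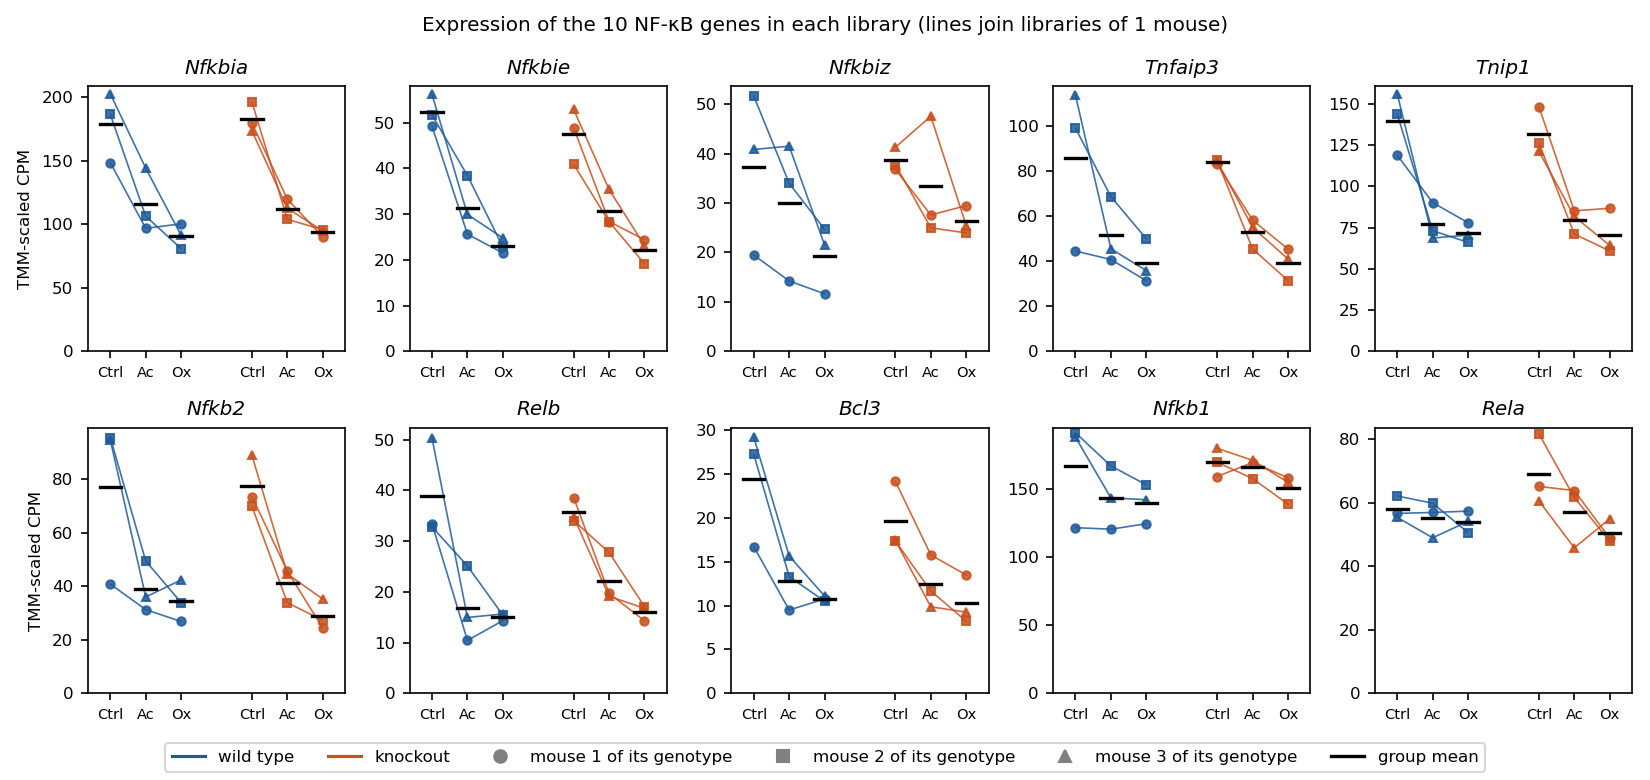
Expression (CPM, TMM-scaled, linear axes from 0) of the 10 genes in each of the 18 libraries, with control (Ctrl), Ac-LDL (Ac) and Ox-LDL (Ox) of wild type (blue) and knockout (orange) mice, lines joining the libraries of 1 mouse and black bars giving group means (n = 3). *Nfkbia* falls from between 149 and 203 to between 80.9 and 100.3 CPM with Ox-LDL in wild type cells, while *Nfkb1* stays between 121 and 191 CPM over all libraries.

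The median log2 fold change of the 10 genes was -1.06 with Ox-LDL in wild type and -0.96 in knockout cells, and with Ac-LDL it was -0.74 and -0.68. Over all genes tested these medians lay between -0.005 and 0.008. The log2 fold change was below 0 for 10 of 10 genes in each of these comparisons, against 50.5% and 48.9% of all genes with Ac-LDL and Ox-LDL in wild type cells and 50.7% and 49.3% in knockout cells. These comparisons share the control libraries of a genotype, so that they are not independent of each other. Because the cells of a mouse received each treatment, the fit was repeated with the mouse as a block. The calls with Ac-LDL rose from 2 to 6 genes in wild type cells and from 2 to 5 in knockout cells, while 2.16% and 2.50% of all genes were then called in either direction. With Ox-LDL the block gave 8 and 7 genes, against 4.39% and 7.18% of all genes. Ac-LDL and Ox-LDL were used at different doses, so their values stand side by side here and were not tested against each other.

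*Nfkbia* encodes IκBα, the inhibitor that captures p65-containing dimers and is resynthesised after each pulse of NF-κB activity (chr12:55489410-55492647, minus strand). In wild type cells of mice 1, 2 and 3 it was at 149, 186 and 203 CPM in control, at 96.8, 106 and 144 CPM with Ac-LDL and at 100.3, 80.9 and 91.3 CPM with Ox-LDL. Knockout cells had 179.7, 196 and 173 CPM in control, 119.8, 104 and 112 CPM with Ac-LDL and 90.1, 95.8 and 94.8 CPM with Ox-LDL. All libraries with either LDL lay below all control libraries of their genotype. With Ox-LDL *Nfkbia* fell to 0.503 of control in wild type (log2 fold change -0.99, SE 0.15, adjusted p = 0.000246) and to 0.512 in knockout cells (-0.97, SE 0.15, adjusted p = 0.000229). With Ac-LDL it fell in knockout cells (-0.71, SE 0.14, adjusted p = 0.0149), while in wild type cells the log2 fold change of -0.63 (SE 0.15) had an adjusted p of 0.0551, and 0.0011 with the mouse block. The calls with Ox-LDL were kept in each of 6 fits that left out 1 library, with adjusted p up to 0.00286 and 0.00331.

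*Nfkbie* encodes IκBε, a further inhibitor of the same class that is induced more slowly (chr17:45555703-45563169, plus strand). Its levels in wild type cells were 49.2, 51.6 and 56.1 CPM in control, 25.6, 38.4 and 29.9 CPM with Ac-LDL and 21.5, 22.8 and 24.8 CPM with Ox-LDL. In knockout cells they were 48.8, 40.9 and 52.9 CPM, 28.4, 28.3 and 35.4 CPM, and 24.4, 19.2 and 23.1 CPM in the same order. The LDL libraries did not overlap with control in either genotype. With Ox-LDL *Nfkbie* fell to 0.442 of control in wild type cells (log2 fold change -1.18, SE 0.19, adjusted p = 0.000584) and to 0.468 in knockout cells (-1.10, SE 0.19, adjusted p = 0.00103). Leaving out any 1 library kept both calls. With Ac-LDL the log2 fold changes of -0.73 (adjusted p = 0.0916) and -0.62 (adjusted p = 0.173) did not pass, and with the mouse block their adjusted p was 0.015 and 0.0361.

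*Tnfaip3* encodes A20, a ubiquitin-editing enzyme that ends signalling upstream of IKK (chr10:19000910-19015657, minus strand). Wild type mouse 1 stood apart in control, with 44.6 CPM against 99.1 and 114 CPM in mice 2 and 3. With Ac-LDL the wild type libraries had 40.8, 68.7 and 45.6 CPM, and with Ox-LDL 31.4, 49.998 and 35.9 CPM. Knockout cells were close together in control (83.2, 84.8 and 84.4 CPM) and lower with Ac-LDL (58.3, 45.5 and 55.1 CPM) and with Ox-LDL (45.5, 31.5 and 41.0 CPM). Ox-LDL libraries overlapped with control in wild type cells through mouse 1, and did not in knockout cells. *Tnfaip3* fell with Ox-LDL to 0.456 of control in wild type (log2 fold change -1.13, SE 0.25, adjusted p = 0.0189) and to 0.466 in knockout cells (-1.10, SE 0.25, adjusted p = 0.0150). These calls were lost in 4 and 5 of 6 fits without 1 library, with adjusted p up to 0.165 without wild type control mouse 3 and up to 0.120 without the knockout Ox-LDL library of mouse 2. The fits without 1 library held no block, and with the mouse block the Ox-LDL values had adjusted p of 2.18e-05 and 1.36e-05. With Ac-LDL the log2 fold changes were -0.74 and -0.67, with adjusted p of 0.349 and 0.363, and of 0.00961 and 0.0111 with the mouse block.

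*Tnip1* encodes ABIN-1, a ubiquitin-binding partner of A20 (chr11:54910785-54962917, minus strand), and it passed in all 4 LDL comparisons. Wild type cells had 119, 144 and 156 CPM in control, 90.1, 73.1 and 68.7 CPM with Ac-LDL and 77.9, 66.0 and 70.4 CPM with Ox-LDL. Knockout cells had 148, 126 and 121 CPM in control, 85.1, 71.1 and 81.8 CPM with Ac-LDL and 86.7, 60.9 and 64.2 CPM with Ox-LDL. No LDL library reached the level of a control library of its genotype. With Ox-LDL *Tnip1* fell to 0.509 of control in wild type (adjusted p = 0.000519) and to 0.531 in knockout cells (adjusted p = 0.000868), and neither call was lost when 1 library was left out. With Ac-LDL it fell to 0.549 (adjusted p = 0.00438) and 0.599 (adjusted p = 0.0163) of control. The calls with Ac-LDL were lost in 1 of 6 fits in wild type cells (without the Ac-LDL library of mouse 3, adjusted p = 0.0625) and in 3 of 6 in knockout cells (up to 0.193, without the Ac-LDL library of mouse 2). With the mouse block the Ac-LDL values had adjusted p of 3.60e-05 and 0.000255. *Tnip1* overlaps with *Gm12230* on the opposite strand, and the strand setting of the counting was not given in the sources used here.

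*Nfkbiz* encodes IκBζ, a nuclear cofactor for a subset of secondary NF-κB targets (chr16:55811375-55838899, minus strand). Wild type cells had 19.5, 51.6 and 40.8 CPM in control, 14.2, 34.0 and 41.5 CPM with Ac-LDL and 11.6, 24.7 and 21.5 CPM with Ox-LDL, with mouse 1 lowest each time. Knockout cells had 36.8, 37.8 and 41.3 CPM in control, 27.6, 25.0 and 47.5 CPM with Ac-LDL and 29.5, 23.9 and 25.4 CPM with Ox-LDL. Each mouse had less *Nfkbiz* with Ox-LDL than in control, while with Ac-LDL 2 of 3 mice of each genotype did. The log2 fold change with Ox-LDL was -0.94 in wild type (SE 0.34, adjusted p = 0.272) and -0.56 in knockout cells (SE 0.32, adjusted p = 0.526). With the mouse block the wild type value passed (adjusted p = 0.00605) and the knockout value did not (adjusted p = 0.0838).

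*Bcl3*, the other nuclear IκB protein of the set, which acts with p50 and p52 dimers, was the gene with the lowest counts (10 to 40 per library, chr7:19808462-19822770, minus strand). It was at 16.7, 27.2 and 29.2 CPM in wild type control cells, at 9.49, 13.3 and 15.6 CPM with Ac-LDL and at 10.8, 10.5 and 11.1 CPM with Ox-LDL. In knockout cells it was at 24.1, 17.3 and 17.4 CPM, 15.8, 11.7 and 9.86 CPM, and 13.5, 8.21 and 9.25 CPM. LDL libraries lay below control libraries in each comparison. Only the fall with Ox-LDL in wild type cells passed (to 0.439 of control, log2 fold change -1.19, SE 0.28, adjusted p = 0.0311), and this call was lost in 5 of 6 fits without 1 library (adjusted p up to 0.173) and with DESeq2. The knockout value was -0.95 (SE 0.29, adjusted p = 0.0905, and 0.0238 with the mouse block). The wild type value had an adjusted p of 0.00334 with that block. *Bcl3* overlaps on the opposite strand with *Gm16174* and *Gm16175*.

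Among the subunits, *Nfkb2* and *Relb* of the non-canonical arm fell with Ox-LDL. *Nfkb2* encodes the p100 precursor, which itself holds *Relb* in the cytoplasm until it is processed to p52 (chr19:46304320-46312385, plus strand). Wild type cells had 40.8, 95.6 and 94.8 CPM in control, 31.3, 49.5 and 36.0 CPM with Ac-LDL and 26.9, 33.9 and 42.4 CPM with Ox-LDL. Knockout cells had 73.6, 69.9 and 89.0 CPM in control, 45.7, 33.9 and 44.6 CPM with Ac-LDL and 24.4, 27.4 and 35.3 CPM with Ox-LDL. The LDL groups overlapped with control in wild type cells, through the control library of mouse 1, and did not in knockout cells. *Nfkb2* fell with Ox-LDL to 0.446 of control in wild type (log2 fold change -1.17, SE 0.25, adjusted p = 0.0138) and to 0.380 in knockout cells (-1.40, SE 0.25, adjusted p = 0.00191). The knockout call was kept in each fit without 1 library, and the wild type call was lost in 3 of 6 (adjusted p up to 0.136, without the control library of mouse 2). With Ac-LDL the log2 fold changes were -0.99 and -0.91, with adjusted p of 0.0927 and 0.112, and of 0.000431 and 0.000398 with the mouse block. For Ox-LDL the block gave adjusted p of 1.46e-05 and 3.01e-07. *Nfkb2* overlaps with *Psd* and *AC114539.1* on the opposite strand.

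*Relb*, the partner of p52 (chr7:19606217-19629438, minus strand), was at 33.4, 32.8 and 50.3 CPM in wild type control cells. It was at 10.4, 25.1 and 14.96 CPM with Ac-LDL and at 14.3, 15.4 and 15.6 CPM with Ox-LDL. In knockout cells the values were 38.6, 34.0 and 34.8 CPM, 19.7, 27.8 and 19.1 CPM, and 14.3, 17.1 and 16.8 CPM. No group with LDL overlapped with its control. *Relb* fell with Ox-LDL to 0.391 of control in wild type (log2 fold change -1.35, SE 0.26, adjusted p = 0.00416) and to 0.452 in knockout cells (-1.14, SE 0.25, adjusted p = 0.0112). It fell with Ac-LDL in wild type cells (-1.18, SE 0.26, adjusted p = 0.0293), and in knockout cells the value was -0.68 (SE 0.24, adjusted p = 0.344). Without 1 library, the calls with Ox-LDL were lost in 1 of 6 fits in wild type cells (adjusted p = 0.0576, without the control library of mouse 3) and in 3 of 6 in knockout cells (up to 0.0704, without the Ox-LDL library of mouse 1). The call with Ac-LDL was lost in 3 of 6 (up to 0.284, without the control library of mouse 3) and without wild type mouse 1. With the mouse block the adjusted p in wild type and knockout cells was 0.000257 and 0.00111 with Ox-LDL. It was 0.00286 and 0.101 with Ac-LDL.

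*Nfkb1* and *Rela* stayed closer to control. *Nfkb1*, which encodes p105 and p50 (chr3:135584655-135691547, minus strand), had 122, 191 and 188 CPM in wild type control cells and 125, 153 and 142 CPM with Ox-LDL. In knockout cells it had 159, 169.6 and 179.9 CPM in control and 158, 139 and 155 CPM with Ox-LDL. Its log2 fold changes lay between -0.26 and -0.03 in the 4 comparisons (adjusted p 0.643 or higher), and the 95% interval with Ox-LDL reached from -0.57 to 0.06 in wild type and from -0.48 to 0.14 in knockout cells. *Rela*, which encodes p65 (chr19:5637483-5648130, plus strand), had 56.6, 62.1 and 55.4 CPM in wild type control cells and 57.3, 50.6 and 54.1 CPM with Ox-LDL. In knockout cells *Rela* had 65.1, 81.7 and 60.6 CPM in control and 48.8, 47.9 and 54.9 CPM with Ox-LDL, groups that did not overlap. Its log2 fold change with Ox-LDL was -0.11 in wild type (95% interval -0.45 to 0.23) and -0.45 in knockout cells (-0.77 to -0.12), the latter with an adjusted p of 0.179. The intervals of *Nfkb1* in both genotypes and of *Rela* in wild type cells lay above those of *Nfkbia* and *Nfkbie* with Ox-LDL, though the difference between genes was not tested.

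**Figure D2:**
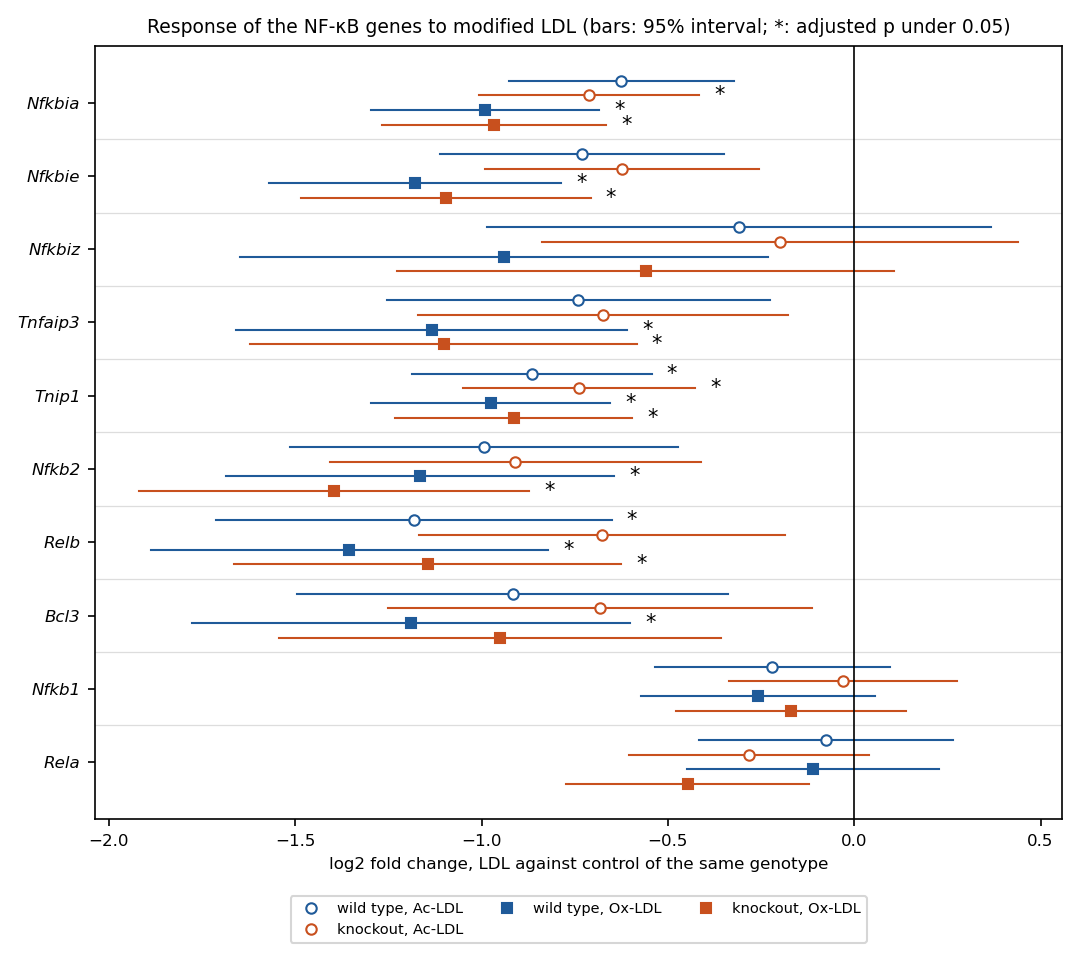
Log2 fold change of each gene with Ac-LDL (open circles) or Ox-LDL (filled squares) against control of the same genotype, wild type in blue and knockout in orange, with bars giving 95% intervals and asterisks an adjusted p under 0.05. *Relb* in wild type (-1.35) and *Nfkb2* in knockout cells (-1.40) lie farthest from 0 with Ox-LDL, and all values lie below 0.

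Some genes were lower without any overlap between libraries. Without overlap and lower than control were 5 genes with Ac-LDL and 5 with Ox-LDL in wild type cells, against 5.48% and 6.17% of all genes, and 7 and 10 genes in knockout cells, against 9.37% and 11.6%. Without wild type mouse 1, 4 genes were called with Ac-LDL (*Tnip1*, *Tnfaip3*, *Nfkbia* and *Nfkb2*) and 7 with Ox-LDL, with 0.859% and 1.96% of all genes called in either direction.

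Per length, *Nfkbia* was the most abundant of the 10 transcripts in each group. Levels per kilobase of the principal transcript in wild type control cells were 114 ± 17.6 CPM per kb for *Nfkbia*, 46.9 ± 6.37 for *Tnip1* and 40.6 ± 9.55 for *Nfkb1* (SD, n = 3). The last 2 of these overlapped in range. *Nfkb2*, *Nfkbie*, *Rela*, *Tnfaip3* and *Relb* followed between 17.6 and 24.5 CPM per kb with ranges that overlapped, and *Bcl3* (13.2 ± 3.62) and *Nfkbiz* (9.07 ± 3.98) were lowest. *Relb* and *Bcl3* overlapped in range, and so did *Bcl3* and *Nfkbiz*. With Ox-LDL in wild type cells *Nfkbia* was at 57.6 ± 6.18, *Nfkb1* at 34.0 ± 3.50, *Tnip1* at 24.04 ± 2.02 and *Rela* at 19.9 ± 1.24 CPM per kb, while the other 6 genes were at 10.95 or lower. The first 4 of these did not overlap in range with their neighbours. In wild type cells the subunits of the canonical dimer thus ranked 2 and 4 with Ox-LDL, and 3 and 6 in control. The control levels of *Rela* and *Nfkbie* were close there (21.4 and 21.5 CPM per kb). For knockout cells the ranks were 2 and 4 with Ox-LDL, and 3 and 4 in control. In knockout cells *Nfkbia* went from 116 ± 7.47 to 59.3 ± 1.93, *Nfkb1* from 41.2 ± 2.51 to 36.6 ± 2.52 and *Rela* from 25.5 ± 4.09 to 18.6 ± 1.40 CPM per kb.

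The question of the design was whether macrophages of the *Slc7a7* knockout differ from wild type, and none of the 10 genes did so by the test. The *Slc7a7* transcript was lowered and not absent in knockout cells (4.33 to 10.3 CPM in control). The comparison is therefore one of reduced expression. In control cells, with Ac-LDL, with Ox-LDL, in the difference between the genotypes in either response, and over counts summed per mouse, edgeR called 0 of 10 genes. At an unadjusted p under 0.05 the count was 0 of 10 in each as well, where 4%, 4.89%, 4.78%, 2.66%, 2.75% and 4.14% of all genes passed, and DESeq2 called 0 of 10. Calls among all genes were 0.00814%, 0.0163%, 0.00814%, 0%, 0% and 0.00789% in the same order. The smallest unadjusted p of any of the 10 genes was 0.126 in control, 0.165 with Ac-LDL and 0.273 with Ox-LDL. The knockout and wild type libraries of the 10 genes overlapped in each treatment.

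The sizes that these data leave possible differed between genes. In control cells the differences (knockout minus wild type, log2) ranged from -0.33 for *Bcl3* (95% interval -0.86 to 0.20) to 0.25 for *Rela* (-0.08 to 0.58). With Ac-LDL they ranged from -0.09 for *Bcl3* (-0.71 to 0.53) to 0.38 for *Relb* (-0.17 to 0.94), and with Ox-LDL from -0.24 for *Nfkb2* (-0.82 to 0.33) to 0.40 for *Nfkbiz* (-0.34 to 1.13). For *Nfkbia* the interval was narrower, from -0.26 to 0.32 in control and from -0.27 to 0.37 with Ox-LDL. The response to Ac-LDL differed between genotypes by between -0.21 for *Rela* (-0.67 to 0.26) and 0.50 for *Relb* (-0.22 to 1.23). The response to Ox-LDL differed by between -0.34 for *Rela* (-0.81 to 0.13) and 0.38 for *Nfkbiz* (-0.60 to 1.36). Over counts summed per mouse the range was from -0.16 for *Bcl3* (-0.64 to 0.31) to 0.18 for *Nfkbiz* (-0.37 to 0.74). These intervals do not show that the genotypes are alike. The sample numbers in the library names run with all wild type samples first. The labels do not say whether processing followed these numbers. If it did, processing order and genotype cannot be told apart.

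**Figure D3:**
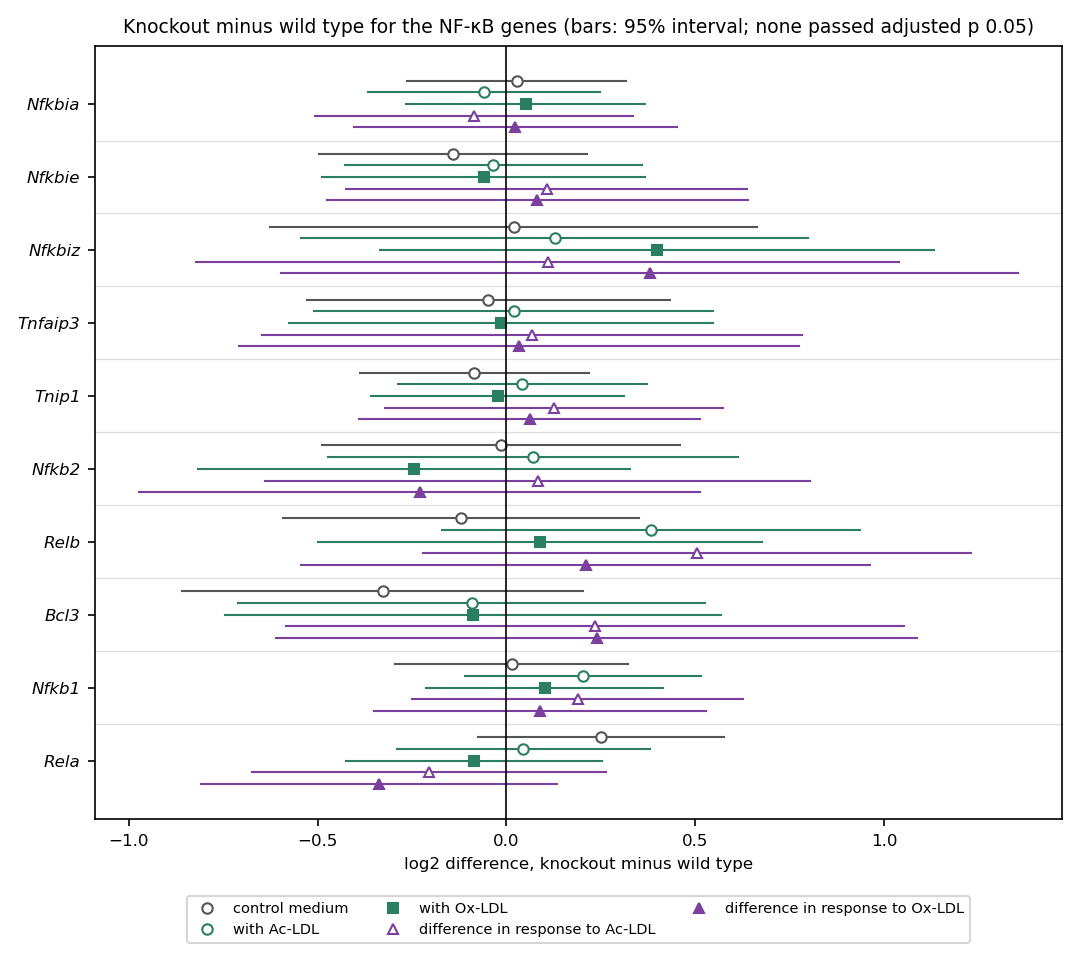
Difference between knockout and wild type (log2, with 95% intervals) for each gene in control (grey circles), with Ac-LDL (open green circles) and with Ox-LDL (filled green squares), and knockout minus wild type of the 2 LDL responses (purple triangles). The widest intervals belong to *Nfkbiz* and *Bcl3*, and each interval includes 0.

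The summed levels of the markers of cell identity differed in part between the same groups. Summed macrophage markers were at 24648 to 35171 CPM in wild type control cells and 21085 to 30179 CPM with Ox-LDL, and at 17545 to 20928 and 12531 to 14468 CPM in knockout cells. The largest part of this sum was *Lyz2* (7526 to 30462 CPM over all libraries), the lysozyme gene that carries the LysM-Cre insertion. The next highest marker, *Csf1r*, reached at most 3000 CPM. None of the 8 macrophage markers passed the test in an LDL comparison, nor did any of the 6 neutrophil and 2 stromal markers tested. *Lyz2* was lower in knockout cells with either LDL. Of the neutrophil markers *Retnlg* was at 0 in all libraries, and their sum was 72.9 to 126 CPM in wild type control and 142 to 252 CPM with Ox-LDL. In knockout cells this sum was 52.0 to 141 CPM in control and 62.9 to 114 CPM with Ox-LDL. Stromal markers summed to 0 to 12.4 CPM in wild type control and 0 to 25.98 CPM with Ox-LDL. In knockout cells they summed to 0.619 to 1.81 and 1.16 to 1.68 CPM. In bulk RNA, fewer cells that express a gene and less RNA per cell cannot be told apart, and the part of these markers in the results above was not tested.

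Other genes of the pathway were read from 4 lists. Of the 4 remaining subunits and IκB proteins (*Rel*, *Nfkbib*, *Nfkbid* and *Nfkbil1*), 0 were called in any LDL comparison by edgeR. The unadjusted p was under 0.05 for 1 gene in 3 comparisons and for 0 with Ac-LDL in knockout cells. Of all genes, 7.33% and 10% had such a p with Ac-LDL and Ox-LDL in wild type cells, and 7.53% and 12.3% in knockout cells. *Rel*, which encodes the c-Rel subunit, had log2 fold changes between -0.14 and -0.07. *Nfkbib*, which encodes IκBβ, had values between -0.68 and -0.44 (adjusted p 0.320 or higher).

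Of 20 genes of the IKK complex and of the adaptors and kinases above it, 2 fell with Ox-LDL in wild type cells and 1 in knockout cells, and 1 fell with Ac-LDL in knockout cells. *Birc3*, which encodes the ubiquitin ligase cIAP2, went from a mean of 106 to 51.6 CPM with Ox-LDL in wild type cells (log2 fold change -1.04, SE 0.18, adjusted p = 0.00180) and from 111 to 48.0 CPM in knockout cells (-1.21, SE 0.18, adjusted p = 0.000218). It was also the gene called with Ac-LDL in knockout cells (-0.90, SE 0.18, adjusted p = 0.0111), and in wild type cells its value was -0.74 (adjusted p = 0.0774, and 0.00165 with the mouse block). *Irak2*, a kinase of Toll-like receptor signalling, fell with Ox-LDL in wild type cells (-0.71, SE 0.17, adjusted p = 0.0267) and had -0.24 in knockout cells (adjusted p = 0.620). The median log2 fold change of this list lay between -0.02 and 0.04. The 3 IKK subunits *Chuk*, *Ikbkb* and *Ikbkg* had values between -0.04 and 0.27, with an adjusted p of 0.511 or higher.

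Of 16 other negative regulators 0 were called in the LDL comparisons. Between 3 and 6 of them had an unadjusted p under 0.05, against 7.33% to 12.3% of all genes. With the mouse block, between 1 and 4 of them fell, *Traf3* and *Tnip3* among those with Ox-LDL in both genotypes. Of all genes, 1.43% to 4.82% were called lower with the block. The list median lay between -0.19 and -0.11.

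Among these lists, that of the known NF-κB target genes had the most calls and was also the longest. Of 30 genes listed 25 passed the filter, and *Il1a*, *Il6*, *Il12b*, *Nos2* and *Vcam1* had too few counts. With Ox-LDL 6 fell and 1 rose in wild type cells, and 9 fell and 1 rose in knockout cells. With Ac-LDL 4 fell in each genotype and 0 rose. With the mouse block, 7 fell in wild type and 8 in knockout cells with Ac-LDL. The block gave 10 that fell in each genotype with Ox-LDL, and 1 that rose in each of these 4 comparisons. Of all genes, 2.16% to 7.18% were then called in either direction. The largest change among the genes of the 4 lists was that of *Acod1*, which encodes the enzyme that makes itaconate, from a mean of 74.4 to 3.20 CPM with Ox-LDL in wild type cells (log2 fold change -4.58, SE 0.41, adjusted p = 1.14e-07). *Sod2*, the mitochondrial superoxide dismutase, went from 139 to 53.4 CPM (-1.38, SE 0.17, adjusted p = 1.14e-05), and *Icam1*, an adhesion molecule, from 153 to 50.1 CPM (-1.59, SE 0.21, adjusted p = 4.57e-05). With Ox-LDL in wild type cells the *Acod1* mean lay close to the level of 3 counts (1.85 to 2.69 CPM). The size of its fall is therefore uncertain. *Acod1*, *Sod2* and *Icam1* fell in each of the 4 comparisons. *Marcksl1* and *Junb* fell with Ox-LDL in both genotypes.

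The gene for the cytokine TNF, *Tnf*, fell with Ox-LDL in knockout cells (-1.76, SE 0.30, adjusted p = 0.00103) and had -0.92 (adjusted p = 0.154, and 0.0109 with the mouse block) in wild type cells. With Ac-LDL it was called only with the block, in wild type (adjusted p = 0.00316) and in knockout cells (adjusted p = 0.00317). The genotype difference in either response was called for 0 of the 25 target genes by edgeR, and 0 had an unadjusted p under 0.05. *Bcl2l1*, an inhibitor of apoptosis, moved the other way, from 54.0 to 93.6 CPM with Ox-LDL in wild type (0.80, SE 0.16, adjusted p = 0.00557) and from 56.5 to 102 CPM in knockout cells (0.86, SE 0.15, adjusted p = 0.00136). The list median was -0.21 with Ac-LDL and -0.92 with Ox-LDL in wild type cells, and -0.50 and -0.65 in knockout cells.

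**Figure D4:**
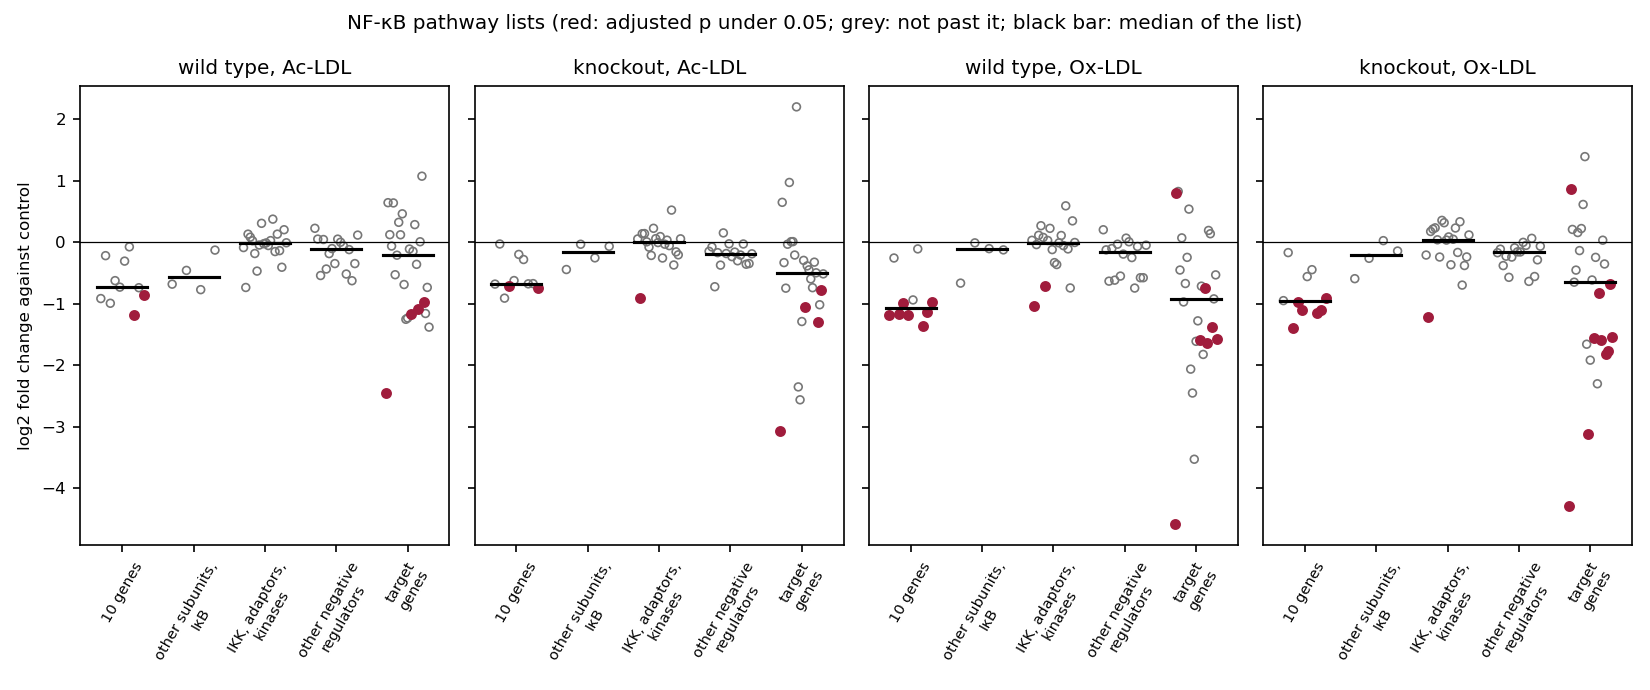
Log2 fold change against control of the 10 genes, of the other subunits and IκB proteins, of the IKK complex with its adaptors and kinases, of the other negative regulators and of the target genes, each point being 1 gene tested, red where the adjusted p was under 0.05, with a black bar at the list median. The lists of IKK genes and of other negative regulators have medians near 0 in each panel (between -0.19 and 0.04), and the 10 genes have medians between -1.06 and -0.68.

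The genes whose pattern over the 18 libraries was most like that of a called gene were found by the root-mean-square difference of centred log2 CPM among 6753 or 6754 other genes with a mean of at least 20 CPM. *Igsf6*, *Birc3* and *Junb* were nearest to *Nfkbia* (0.173 to 0.191, where the median gene was at 0.482). *Ncf4*, *Rnf19b* and *Ccl9* were nearest to *Tnip1* (0.169 to 0.196). For *Tnfaip3* the nearest were *Rnd3*, *Slfn2* and *Gsap* (0.208 to 0.220). *Nfkb2* was the case in which another gene of the set came first, *Tnfaip3* at 0.231, followed by *Slfn2* and *Vasp*. *H2-Q4*, *Birc3* and *Ehd1* were nearest to *Relb* (0.237 to 0.268), and *Fam20c*, *Igsf6* and *Birc3* to *Bcl3* (0.200 to 0.222). *Birc3* was thus among the 3 nearest genes of 3 of the 7 called genes. All points share the same libraries and their depth, and likeness of pattern is given as a description.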

How the data were processed

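Bulk RNA-Seq of BMDM-s from 3 knockout and 3 wild type mice under 3 treatments (18 libraries) was analysed; the labels gave groups and mice, and the study's methods gave doses and times. Single-end reads from a stranded total RNA kit were trimmed (Trim Galore) and mapped to mm10 (STAR) by the authors, with Ensembl release 93 as annotation. They deposited estimated counts (expected counts) per gene from Salmon, not normalized. Versions and the strand setting are not given in the sources used here.

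Counts were rounded and filtered with filterByExpr (minimum count 2, minimum total 10; 12290 of 31053 genes), scaled by TMM and fitted with edgeR 4.0.16 (R 4.3.3) by quasi-likelihood over 6 groups without covariates (12 residual degrees of freedom). Counts summed per mouse (12673 genes) served for the genotype overall. P-values were adjusted by Benjamini-Hochberg over all genes tested, at 0.05. SE is the log2 fold change divided by the square root of F. Log2 CPM used a prior count of 2. The procedure without a block was tested on simulated data that held no mouse effect, so the fit with the mouse block was not tested in this way. Replicates differed beyond counting noise (chi-square per degree of freedom 2.03 to 12.7).

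The 10 genes, the lists and the rule for named genes (all 10 genes, *Slc7a7*, up to 5 called genes per list and comparison, and the 3 nearest genes in pattern) were chosen with earlier results of these data known. Genes named beyond this rule were chosen after their values were seen. The nearest genes of *Nfkbie* are not reported here. Labels give the libraries of 1 mouse a common mouse identifier, so they are paired by animal. Deviations of such libraries from group means correlated at 0.0551 to 0.293 (over 0.1 in 14 of 18 pairs), and those of equal numbers across genotypes at -0.088 to 0.056. Alternatives were DESeq2 1.42.0, library size scaling, the default filter (10004 genes) or none (22179 genes), only the groups compared, a replicate block, each library left out, and, added after seeing the data, wild type mouse 1 left out. Coordinates are from GENCODE vM21 (GRCm38). Figures were drawn with matplotlib 3.10.9.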

Additional observations from a re-analysis of the deposited data

How the results depend on the processing

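Counts of the 10 genes called with Ac-LDL depended most on the processing. In wild type cells the 2 calls became 5 without a filter, 0 in a fit of only the groups compared, 6 with the replicate block for the mouse and 4 without wild type mouse 1, and leaving out 1 library gave 1 to 5. In knockout cells the 2 calls became 4 without a filter, 4 with only the groups compared and 5 with the replicate block, and 0 to 2 without 1 library. With Ox-LDL, the 7 calls in wild type cells became 4 with only the groups compared and 3 to 7 without 1 library, and the 6 in knockout cells stayed between 4 and 7. The cause was not tested. Every call among the 10 genes was a fall under each of these alternatives.

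For the knockout against wild type and for the genotype difference in either response, edgeR called 0 of the 10 genes under each alternative run, a block for the replicate number or the mouse included, and DESeq2 called 0 in its 1 fit. Equal numbers across genotypes are different animals, so the block for the number is not a pairing. At an unadjusted p under 0.05, *Bcl3* passed in control cells without wild type mouse 1 (5.83% of all genes), and *Relb* passed without the wild type Ac-LDL library of mouse 2, with Ac-LDL (6.99%) and in the difference of that response (3.13%).

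With Ox-LDL against control 0 of the 10 genes changed direction under any alternative, and with Ac-LDL 1 did in wild type and 2 in knockout cells. Between genotypes, 7 changed in control, 8 with Ac-LDL, 5 with Ox-LDL and 7 over summed counts, and 5 and 7 in the difference of the response to Ac-LDL and Ox-LDL. These had log2 differences between -0.23 and 0.21. *Nfkb1* with Ac-LDL in knockout cells was -0.03, against 0.0304 with library size scaling and -0.0698 to 0.0285 without 1 library. Leaving out 1 library also gave -0.15 to 0.0130 for *Rela* with Ac-LDL in wild type, -0.55 to 0.00753 for *Nfkbiz* with Ac-LDL in knockout cells and -0.27 to 0.0886 for *Bcl3* between genotypes with Ac-LDL. Leaving out 1 mouse gave -0.10 to 0.38 for *Nfkbiz* over summed counts. The smallest counts in a single library were those of *Bcl3* (10 to 40), *Relb* (11 to 69) and *Nfkbiz* (13 to 82). Whether depth set the width of their intervals was not tested.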
